A study of Caenorhabditis elegans with 6 samples.

Results

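C-type lectin genes (*clec*) were followed in whole late L4 larvae of 2 *ets-4* mutant strains, *ets-4(uz1)* and *ets-4(ok165)*, each set against wild-type N2 worms. The members were all genes on the array whose symbol starts with *clec-* and whose signal was well above background, in the mutant or the wild-type channel, on at least 3 of the 6 arrays. Of 237 such genes on the array, 137 met this rule, among 14765 genes tested in all, and 100 did not (51 of them well above background on 0 arrays, 37 on 1 and 12 on 2). A gene that is dim in wild type could enter through the mutant channel alone, and 18 members did so, with a wild-type signal not well above background on any array.

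ETS-4 is a transcription factor of the ETS family. *ets-4(uz1)* is a deletion found by screening a library of mutagenized worms and lacks most of the DNA-binding ETS domain. *ets-4(ok165)* is a deletion that removes both the ETS and the PNT domain from the coding sequence. Both strains were outcrossed to N2, carry the mutation in every cell, and were grown on plates with OP50 bacteria like the wild type. Each array held Cy5-labeled cDNA of 1 mutant sample and Cy3-labeled cDNA of 1 wild-type sample, with 3 arrays for each mutant strain. All values are log2 ratios of mutant over wild type unless named otherwise, and a value after a ± sign is the SD over 3 arrays. Cy3 always marked wild type, and therefore dye effects and mutant effects cannot be told apart in a ratio. In the difference between the strains the dye effect cancels.

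C-type lectin domains are folds that, in many animal proteins, bind sugars in a calcium-dependent way. Worms carry a large family of such genes, many of them encoding secreted proteins, and a number are expressed in the intestine and switched on when the animal feeds on pathogenic bacteria. The p38 MAP kinase PMK-1 and the β-catenin BAR-1 are among the regulators known to act on some of them in the intestine. Several *clec* genes stand next to each other in the genome in runs of related copies.

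The *ets-4* probe checked which channel held the mutant. Its values overlapped between the strains, so it could not check which mutant strain an array held. Its log2 ratios were −3.18, −3.08 and −2.84 on the *ets-4(uz1)* arrays and −3.59, −2.80 and −2.72 on the *ets-4(ok165)* arrays. The signal was low in both mutants on every array, although the place of the probe relative to the deletions was not determined. Between 72.8% and 85.4% of non-control spots were well above background in the mutant channel and 68.5% to 72.9% in the wild-type channel. The 3 arrays per strain limit the precision of each value. Because same-numbered arrays moved together, a second limma fit took the number as a blocking factor. Its values, called blocked, are given where they change a call or a count.

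In *ets-4(uz1)* larvae 8 C-type lectin genes fell and 5 rose, 13 of the 137, with limma's adjusted p below 0.05 as the threshold. This is 9.49% of the members, beside 3.54% of all genes tested (1.33% lower, 2.2% higher). The lower genes were *clec-51*, *clec-52*, *clec-67*, *clec-68*, *clec-70*, *clec-71*, *clec-72* and *clec-169*, and the higher ones *clec-7*, *clec-17*, *clec-61*, *clec-180* and *clec-216*. *clec-216* met the signal limit through the mutant channel alone, which favors a rise, and without it 12 members passed, 4 of them higher. In *ets-4(ok165)* larvae 0 members passed limma, with the lowest adjusted p at 0.064, where 0.0948% of all genes tested did. Without adjustment, p fell under 0.05 for 30 lower and 16 higher members in *ets-4(uz1)* (19.6% of all genes tested) and for 10 lower and 18 higher in *ets-4(ok165)* (8.13%). Of these, 2 lower and 9 higher in *ets-4(uz1)*, and 1 and 10 in *ets-4(ok165)*, had a wild-type signal not well above background on at least 1 array. In such members the signal limit can favor a rise.

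In the blocked fit 29 members fell and 11 rose in *ets-4(uz1)*. These are 29.2% of the members, beside 15.5% of all genes tested (8.32% lower, 7.21% higher). Of the 11, *clec-13*, *clec-38* and *clec-216* needed the mutant channel to meet the signal limit, which favors a rise. Of the 29, *clec-203* had neither channel well above background on any *ets-4(uz1)* array. In *ets-4(ok165)* 2 fell, *clec-52* and *clec-70*, and 2 rose, *clec-7* and *clec-13*, where 0.332% of all genes passed (0.224% lower, 0.108% higher). Of these *clec-13* needed its mutant channel to meet the signal limit, which favors a rise. Rank Products, the test of the study's methods, called 11 lower and 7 higher members in *ets-4(uz1)* (2.8% of all genes) and 4 lower and 4 higher in *ets-4(ok165)* (0.657% of all genes). It called none of the 100 genes below the signal limit. Among its calls, 1 lower and 6 higher in *ets-4(uz1)*, and 1 and 3 in *ets-4(ok165)*, had a wild-type signal not well above background on at least 1 array. There too the signal limit can favor a rise. With slide as a fixed block 0 members passed limma in *ets-4(uz1)*, and 0 of all genes did. Slide 2 held only *ets-4(ok165)* arrays and slide 3 only *ets-4(uz1)* arrays, so slide and strain are largely confounded. With normexp and loess 6 members passed, among 399 of all genes. Without the filter on dim probes 3 members did, among 128 of all genes. The calls in *ets-4(uz1)* rest on all 3 of its arrays. Without its array 1 *clec-17* was the 1 member called, among 60 of all genes, beside 522 with all arrays. Without array 2 there were 3, *clec-17*, *clec-61* and *clec-216* (62 of all genes). Without array 3 there were 5, *clec-17*, *clec-51*, *clec-52*, *clec-67* and *clec-68* (96 of all genes). Leaving out array 3 of *ets-4(ok165)*, which shares the estimate of the spread, lost the calls of *clec-61*, *clec-71*, *clec-72* and *clec-169*, and leaving out its array 1 lost that of *clec-71*.

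**Figure D1:**
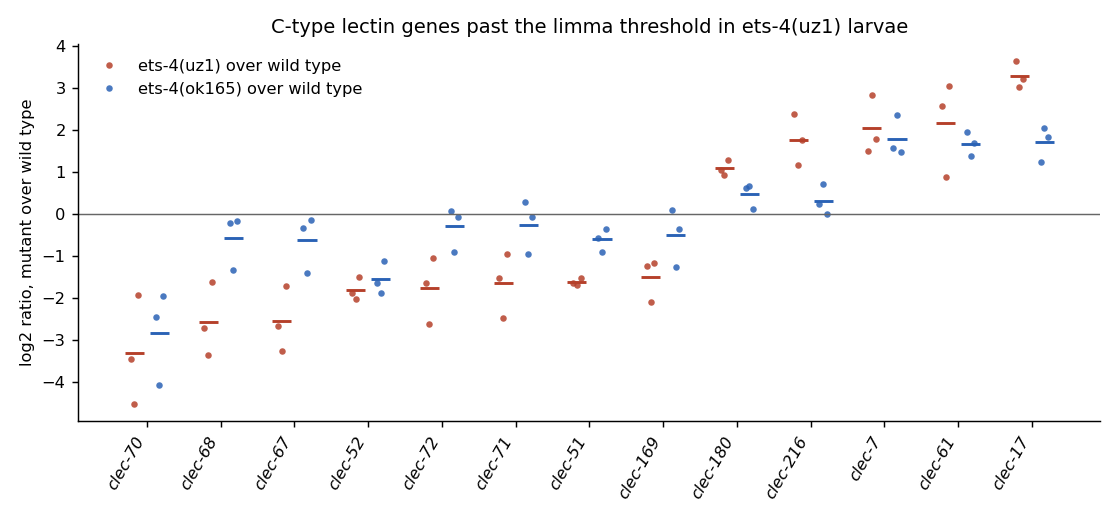
The 13 C-type lectin genes past the limma threshold in *ets-4(uz1)* larvae, in order of their mean. Each point is the log2 ratio of mutant over wild type on 1 array and each short line is the mean of 3 arrays, red for *ets-4(uz1)* and blue for *ets-4(ok165)*. The *ets-4(uz1)* points of all 8 lower genes lie below 0 and those of all 5 higher genes above it, while the blue means run from −2.83 for *clec-70* to 1.79 for *clec-7*.

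*clec-17* (E03H4.10), on chromosome I, had the greatest rise. Its log2 ratios were 3.63, 3.01 and 3.20 on the *ets-4(uz1)* arrays and 1.24, 2.05 and 1.83 on the *ets-4(ok165)* arrays. Every *ets-4(uz1)* value was above every *ets-4(ok165)* value, and all 6 were above 0. The mean was 9.72-fold above wild type in *ets-4(uz1)* (3.28 ± 0.32, adjusted p = 0.001 from limma), and 3.26-fold in *ets-4(ok165)* (1.71 ± 0.42, adjusted p = 0.064 from limma). The wild-type signal of this probe reached the limit for well above background on 2 of the 3 *ets-4(uz1)* arrays and 1 of the 3 *ets-4(ok165)* arrays. With another background correction, normexp and loess, the *ets-4(uz1)* mean was 1.66 and the call stayed (adjusted p = 0.00666 from limma).

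*clec-7* (F10G2.3) and *clec-61* (ZK666.7) were high in both strains. *clec-7* gave 1.50, 2.83 and 1.79 in *ets-4(uz1)* and 1.56, 2.36 and 1.46 in *ets-4(ok165)*. The strains overlapped, and the mean rise was 4.12-fold in *ets-4(uz1)* (2.04 ± 0.70, adjusted p = 0.0184 from limma) with 1.79 ± 0.49 in *ets-4(ok165)* (adjusted p = 0.169 from limma, 0.0248 blocked). *clec-61*, whose product carries a von Willebrand factor type A domain in the annotation of the array, gave 2.56, 0.88 and 3.04 in *ets-4(uz1)* and 1.94, 1.38 and 1.68 in *ets-4(ok165)*. Here too all 6 values were above 0 and the strains overlapped. The rise was 4.47-fold in *ets-4(uz1)* (2.16 ± 1.13, adjusted p = 0.0311 from limma). Under normexp and loess neither gene passed in *ets-4(uz1)* (0.94 for *clec-7*, adjusted p = 0.0694 from limma; 1.23 for *clec-61*, adjusted p = 0.0666).

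*clec-180* (F32E10.3) and *clec-216* (F26D11.5) rose in *ets-4(uz1)* with *ets-4(ok165)* values nearer to 0. *clec-180* gave 1.04, 0.93 and 1.28 in *ets-4(uz1)* and 0.62, 0.67 and 0.12 in *ets-4(ok165)*. The strains did not overlap, and the *ets-4(uz1)* mean was 2.12-fold above wild type (1.08 ± 0.18, adjusted p = 0.025 from limma). Rank Products did not call this gene. *clec-216* gave 2.38, 1.16 and 1.75 in *ets-4(uz1)* and 0.23, 0.71 and 0.00 in *ets-4(ok165)*. No array had its wild-type signal well above background, so the change in *ets-4(uz1)* is a lower limit, at least 1.81-fold higher than in wild type (adjusted p = 0.0184 from limma), set by the mutant signal over the limit of the wild-type one. Since the gene was kept through its mutant signal, on 3 *ets-4(uz1)* arrays and 1 *ets-4(ok165)* array, this p is not independent of how it was chosen. Under normexp and loess its mean was 0.36 and it did not pass.

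The lower genes past the limma threshold lay in groups along chromosome IV. *clec-51* (B0218.6) and *clec-52* (B0218.8) stand there with 1 gene between them, *B0218.7*, whose symbol is not that of a lectin gene. *clec-51* gave −1.65, −1.69 and −1.52 in *ets-4(uz1)* and −0.58, −0.91 and −0.35 in *ets-4(ok165)*. The *ets-4(uz1)* values were all below the others and close together, 3.07-fold below wild type (−1.62 ± 0.0866, adjusted p = 0.00652 from limma). *clec-52* gave −1.89, −2.03 and −1.51 in *ets-4(uz1)* and −1.64, −1.88 and −1.12 in *ets-4(ok165)*. It was low on all 6 arrays with overlapping strains, 3.50-fold below wild type in *ets-4(uz1)* (−1.81 ± 0.27, adjusted p = 0.00851 from limma) and 2.93-fold in *ets-4(ok165)* (−1.55 ± 0.39, adjusted p = 0.0711 from limma, 0.0248 blocked).

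The longest run of neighboring members, on the same chromosome, held 9 measured *clec* genes over 20 genes of the annotation. Its first 5 members in gene order fell in *ets-4(uz1)*, and its other 4 did not pass. *clec-67* (F56D6.2), a gene known as a target of the PMK-1 pathway, gave −2.67, −3.26 and −1.72 in *ets-4(uz1)* and −0.34, −1.41 and −0.14 in *ets-4(ok165)*. The strains did not overlap and the fall in *ets-4(uz1)* was 5.85-fold (−2.55 ± 0.78, adjusted p = 0.016 from limma). Its neighbor *clec-68* (F56D6.1) gave −2.71, −3.36 and −1.63 in *ets-4(uz1)* and −0.22, −1.34 and −0.17 in *ets-4(ok165)*, a 5.92-fold fall in *ets-4(uz1)* (−2.57 ± 0.88, adjusted p = 0.0175 from limma). These 2 genes had nearly the same ratio on every array. Probe sequences were not used here, so whether a probe also reads a closely related neighbor was not tested.

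*clec-70* (Y46C8AL.3) had the lowest mean of the run in both strains. It gave −3.46, −4.52 and −1.93 in *ets-4(uz1)* and −2.46, −4.08 and −1.96 in *ets-4(ok165)*, and the strains overlapped. The mean was 9.88-fold below wild type in *ets-4(uz1)* (−3.30 ± 1.30, adjusted p = 0.0262 from limma), where 1 of the 3 arrays had a mutant signal well above background. In *ets-4(ok165)* it was −2.83 ± 1.11 (adjusted p = 0.292 from limma, 0.0157 blocked). Under normexp and loess the *ets-4(uz1)* mean was −1.31, short of the threshold (adjusted p = 0.215 from limma).

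*clec-71* (Y46C8AL.4) gave −1.52, −2.48 and −0.96 in *ets-4(uz1)* and 0.27, −0.96 and −0.08 in *ets-4(ok165)*, a 3.14-fold fall in *ets-4(uz1)* (−1.65 ± 0.77, adjusted p = 0.0462 from limma). *clec-72* (Y46C8AL.5) gave −1.65, −2.61 and −1.04 in *ets-4(uz1)* and 0.07, −0.90 and −0.08 in *ets-4(ok165)*, a 3.41-fold fall (−1.77 ± 0.79, adjusted p = 0.0337 from limma). Both were low on every *ets-4(uz1)* array and near 0 on 2 of the 3 *ets-4(ok165)* arrays. Under normexp and loess neither passed (−1.38 with adjusted p = 0.083 and −1.57 with adjusted p = 0.0577 from limma). At the other end of the run *clec-73*, *clec-76*, *clec-79* and *clec-78* had *ets-4(uz1)* means of 0.46, 0.48, 0.48 and 0.19, and *ets-4(ok165)* means of 0.12, 0.42, −0.02 and 0.60. No array had a wild-type signal well above background for *clec-78*. The eighth lower gene, *clec-169* (F38A1.14), lies elsewhere on chromosome IV. It gave −1.23, −2.09 and −1.16 in *ets-4(uz1)* and 0.09, −1.26 and −0.36 in *ets-4(ok165)*, 2.81-fold below wild type in *ets-4(uz1)* (−1.49 ± 0.52, adjusted p = 0.0444 from limma), with a mutant signal above that limit on 2 of the 3 arrays. Its neighbor *clec-170* gave 0.85, −0.86 and −1.27 in *ets-4(uz1)* and did not pass.

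**Figure D2:**
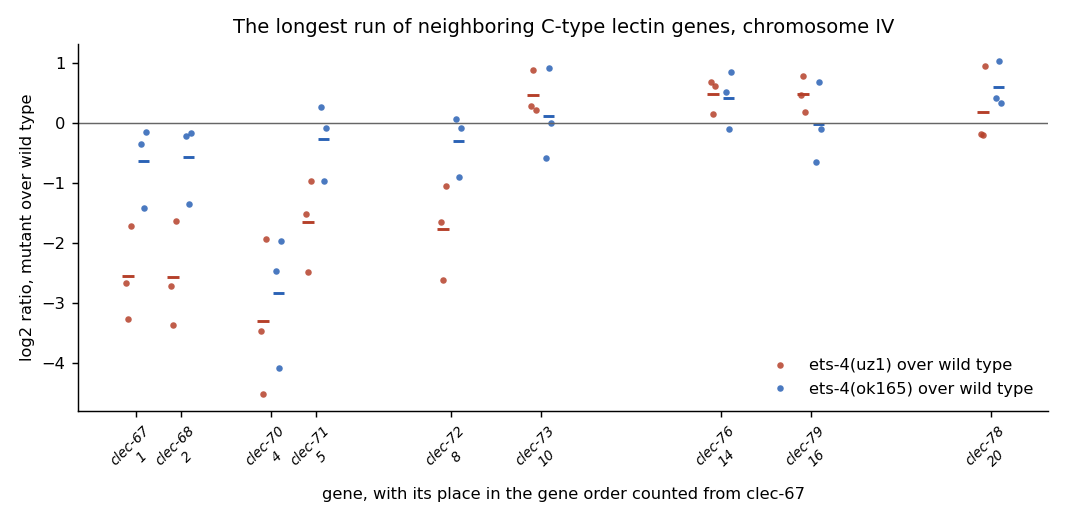
The run of 9 measured C-type lectin genes on chromosome IV, placed by gene order counted from *clec-67*. Points are log2 ratios of mutant over wild type on single arrays and short lines the means of 3 arrays, red for *ets-4(uz1)* and blue for *ets-4(ok165)*. The red means of the first 5 genes lie between −3.30 and −1.65 and those of the last 4 between 0.19 and 0.48, and only *clec-70* has a blue mean below −1.

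A number of C-type lectin genes are known from studies of worms fed pathogenic bacteria, and 18 of these were listed, with earlier results of these data known, of which 15 were measured. In *ets-4(uz1)* larvae 4 fell (*clec-52*, *clec-67*, *clec-70* and *clec-71*), 3 rose (*clec-7*, *clec-17* and *clec-61*) and 8 did not pass, where 3.54% of all genes tested passed. In the blocked fit 8 fell and 3 rose, where 15.5% of all genes passed. In *ets-4(ok165)* 0 passed limma (0.0948% of all genes). There 3 were lower and 3 higher at an unadjusted p under 0.05 (8.13%), the same numbers by Rank Products (0.657%), and 2 lower and 1 higher in the blocked fit (0.332%). The median of the 15 was −0.65 in *ets-4(uz1)*, with −0.25 in *ets-4(ok165)*, beside 0.03 and −0.02 over all genes tested. Among the other 122 members 4 fell and 2 rose in *ets-4(uz1)* (21 and 8 in the blocked fit), and the median was −0.07 in that strain, with 0.06 in *ets-4(ok165)*. In *ets-4(uz1)* the list held the lowest and the highest mean of the family, *clec-70* and *clec-17*, while in *ets-4(ok165)* the highest, 2.43 for *clec-13*, was outside it. Since the list was made with earlier results known, its contrast with the other members is not read as a trait of infection genes.

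Of the listed genes that did not pass, *clec-60* (ZK666.6), known to be induced by *Staphylococcus aureus* and to need BAR-1 for it, gave −2.19, −0.93 and −0.67 in *ets-4(uz1)* and −0.99, −1.31 and 0.93 in *ets-4(ok165)*. It lies near *clec-61*, with 2 genes between them, and their values pointed apart. *clec-60* was low on 5 of the 6 arrays where *clec-61* was high on all 6, and its *ets-4(uz1)* mean of −1.26 ± 0.81 had an adjusted p of 0.199 from limma (0.0481 blocked). Rank Products called *clec-60* lower in *ets-4(uz1)*. *clec-86* (C54D1.2), on the X chromosome, gave −2.42, −0.95 and −0.51 in *ets-4(uz1)* and −2.19, −0.80 and −1.03 in *ets-4(ok165)*. All 6 values were below 0, but they were spread widely, and the *ets-4(uz1)* mean of −1.29 ± 1.0 passed only in the blocked fit (adjusted p = 0.141 from limma, 0.0137 blocked).

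The remaining listed genes lay closer to wild type. *clec-85* (Y54G2A.6), another known target of the PMK-1 pathway, gave −0.18, −0.52 and −0.72 in *ets-4(uz1)* and 0.08, −0.36 and 0.07 in *ets-4(ok165)* and did not pass. *clec-63* averaged −0.75 ± 0.75 and *clec-49* −0.65 ± 0.48 in *ets-4(uz1)*, with adjusted p of 0.232 and 0.204 from limma (0.027 and 0.0245 blocked). *clec-66* and *clec-4* averaged −0.23 and 0.57 in *ets-4(uz1)*. Both missed the threshold, and *clec-4* had a usable value on 1 of the 3 *ets-4(ok165)* arrays. *clec-42* lacked a wild-type signal above that limit on all arrays, and no fold is given for it.

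**Figure D3:**
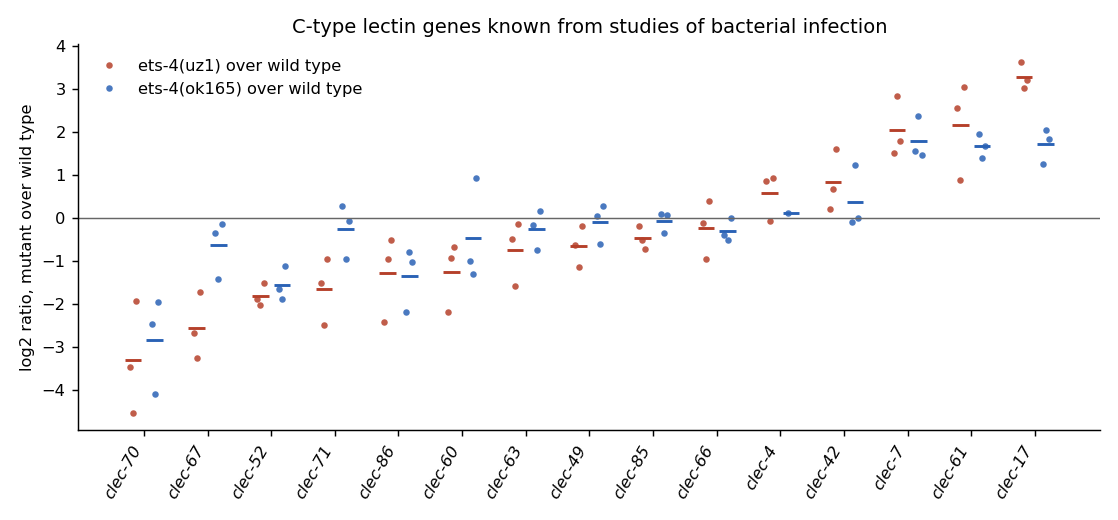
The 15 measured C-type lectin genes known from studies of bacterial infection, in order of their *ets-4(uz1)* mean. Points are log2 ratios of mutant over wild type on single arrays and short lines the means, red for *ets-4(uz1)* and blue for *ets-4(ok165)*. The red means run from −3.30 for *clec-70* to 3.28 for *clec-17* and the blue means from −2.83 to 1.79.

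The regulators of that infection response were looked at beside their possible targets. Of 18 measured genes of 20 listed, 0 passed limma in either strain. At an unadjusted p under 0.05 there were 2 lower in *ets-4(uz1)* (19.6% of all genes) and 1 higher in *ets-4(ok165)* (8.13%). Rank Products called none in either strain (2.8% and 0.657% of all genes). In the blocked fit 3 fell in *ets-4(uz1)*, namely *sma-3*, the receptor gene *fshr-1* and *irg-1*, an infection response gene, where 15.5% of all genes tested passed and 8.32% were lower. The p38 kinase gene *pmk-1* averaged −0.68 ± 0.72 in *ets-4(uz1)*, with −0.48 ± 0.30 in *ets-4(ok165)*, and the GATA factor gene *elt-2* averaged −0.49 ± 0.71 in *ets-4(uz1)*, with −0.01 ± 0.43 in *ets-4(ok165)*. Others lay on the other side, above 0 on all 6 arrays, *sek-1* with means of 0.40 ± 0.27 and 0.46 ± 0.36 and *daf-16* with 0.31 ± 0.23 and 0.35 ± 0.32. Over the list 12 means were below 0 and 6 above in *ets-4(uz1)*, and 10 and 8 in *ets-4(ok165)*. RNA levels of these genes do not measure the activity of their products.

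In *ets-4(ok165)* larvae the members with the largest means of one sign on all 3 arrays were *clec-70*, *clec-13*, *clec-7*, *clec-17*, *clec-61*, *clec-52*, *clec-47* and *clec-86*. *clec-13* (H16D19.1), whose product has a CUB domain in the annotation of the array, gave 1.32, 0.28 and 3.67 in *ets-4(uz1)* and 2.30, 1.28 and 3.71 in *ets-4(ok165)*. It was above 0 on all 6 arrays and highest on array 3 of both strains. The spread was wide, 1.76 ± 1.74 in *ets-4(uz1)* (adjusted p = 0.206 from limma, 0.0105 blocked) and 2.43 ± 1.22 in *ets-4(ok165)* (adjusted p = 0.465 from limma, 0.0248 blocked). In each strain 1 of the 3 arrays had a wild-type signal well above background for it. The gene thus needed its mutant signal to meet the signal limit, so these p-values are not independent of how it was chosen. *clec-47* (T09F5.9) gave −0.83, −1.19 and −2.77 in *ets-4(uz1)* and −1.40, −1.92 and −1.17 in *ets-4(ok165)*. It was below 0 on all 6 arrays, and its *ets-4(uz1)* mean of −1.60 ± 1.04 had an adjusted p of 0.0633 from limma (0.045 blocked). By Rank Products 7 members passed in the same direction in both strains (0.281% of all genes did), *clec-7*, *clec-13*, *clec-17* and *clec-61* higher and *clec-47*, *clec-52* and *clec-70* lower.

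The difference between the mutant strains was tested next. In *ets-4(uz1)* minus *ets-4(ok165)* 0 members passed limma, where 0.163% of all genes tested did, and the lowest adjusted p was 0.162. Without adjustment p was under 0.05 for 13 members lower and 5 higher in *ets-4(uz1)* than in *ets-4(ok165)* (6.75% of all genes tested), and in the blocked fit *clec-67* passed, lower in *ets-4(uz1)* (0.623% of all genes, 0.21% lower). Rank Products was not run on this difference. The arrays of the strains did not overlap for 15 of the 137 members, or 10.9%, beside 10.7% of all genes, and 2 members, *clec-28* and *clec-210*, had opposite signs on every array of the strains, where 1.73% of all genes did. The 8 largest differences were those of *clec-190*, *clec-68*, *clec-67*, *clec-159*, *clec-82*, *clec-17*, *clec-210* and *clec-72*. The difference was −1.99 (SE 0.51, adjusted p = 0.347 from limma) for *clec-68* and −1.92 (SE 0.48, adjusted p = 0.339 from limma, 0.043 blocked) for *clec-67*. It was 1.57 (SE 0.30, adjusted p = 0.162 from limma) for *clec-17*. With scan as a random block 11 members passed this difference, among them *clec-67* (adjusted p = 0.0104 from limma), *clec-68* (0.0134), *clec-17* (0.017) and *clec-72* (0.0302). The share of all genes that passed in that fit is not given here, so the 11 are not read as particular to the members. Whether a change that passed in *ets-4(uz1)* and not in *ets-4(ok165)* differs between the strains thus depends on how the batches enter the fit, and without a block no member's difference passed.

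*clec-82* (Y54G2A.8), on chromosome IV, gave −1.75, −2.50 and −0.57 in *ets-4(uz1)* and 0.25, −1.20 and 0.97 in *ets-4(ok165)*. On each pair of arrays with the same number *ets-4(uz1)* was the lower. The *ets-4(uz1)* mean of −1.61 ± 0.97 did not pass limma (adjusted p = 0.123) but passed in the blocked fit (adjusted p = 0.00873 from limma). Rank Products also called the gene lower in that strain. *clec-190* (M199.4) gave 0.00, 0.00 and −4.96 in *ets-4(uz1)* and 1.77, 0.00 and −0.28 in *ets-4(ok165)*. Its size came from a single array, on which, as on the other *ets-4(uz1)* arrays, the mutant signal was not well above background. For *clec-159* (R13F6.2), a pseudogene in the annotation, neither channel reached the limit on the *ets-4(uz1)* arrays, so no fold is given there.

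**Figure D4:**
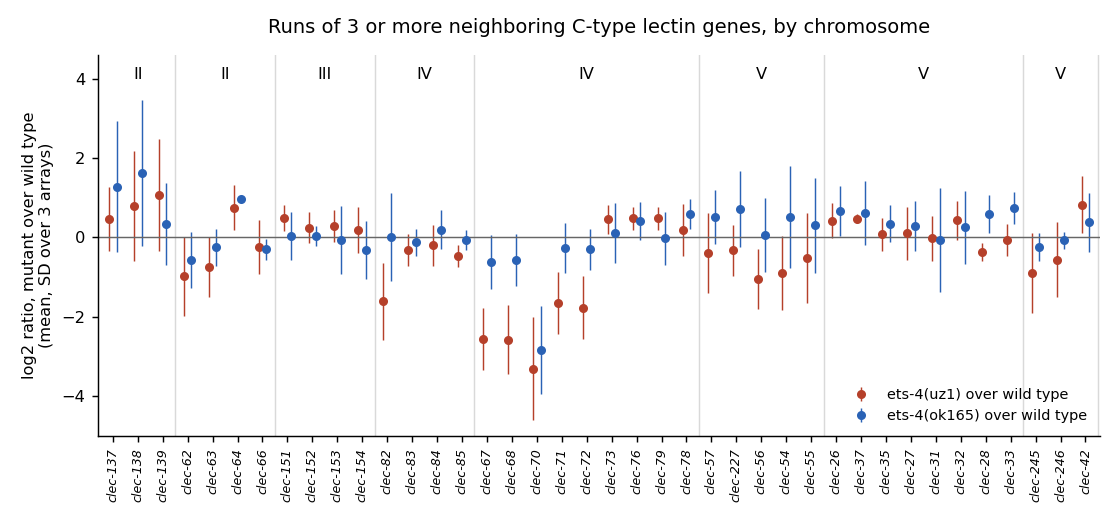
Runs of 3 or more neighboring C-type lectin genes, with at most 3 other genes between members, and the chromosome above each run. Points are mean log2 ratios of mutant over wild type and bars the SD over 3 arrays, red for *ets-4(uz1)* and blue for *ets-4(ok165)*. The run from *clec-67* to *clec-78* spans the widest range of red means, −3.30 to 0.48, while the red means of the run from *clec-26* to *clec-33* stay between −0.36 and 0.47.

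Position in the genome was set beside the changes, since it was not used in choosing the members. Of the 137 members 55 lie on chromosome V, 29 on IV, 25 on II, 14 on I, 12 on III and 2 on X. With at most 3 other genes between neighbors, 72 members formed 24 runs of 2 to 9 genes. All 8 genes that fell past the limma threshold in *ets-4(uz1)* lay in runs and on chromosome IV, and 1 of the 5 that rose lay in a run. Genes that fell in the blocked fit lay on other chromosomes too, such as *clec-53* on I, *clec-10* on II, *clec-150* on III, *clec-48* on V and *clec-86* on X. The share of all falling genes that lies on chromosome IV was not computed, so the chromosome is not read as a trait of the falling members. In the blocked fit 18 fell and 6 rose among members in runs, and 11 fell and 5 rose among the others. Of all genes, 8.32% fell and 7.21% rose in that fit. The median in *ets-4(uz1)* was −0.29 for members in runs and 0.00 for the other 65, and in *ets-4(ok165)* 0.07 and −0.04. On chromosome V 5 neighbors, *clec-57*, *clec-227*, *clec-56*, *clec-54* and *clec-55*, had *ets-4(uz1)* means between −1.04 and −0.32 and *ets-4(ok165)* means between 0.06 and 0.72. All 5 were lowest on array 2 of both strains. For *clec-56* the values were −0.65, −1.91 and −0.57 in *ets-4(uz1)* and 0.91, −0.93 and 0.20 in *ets-4(ok165)*, and with its neighbor *clec-54* (adjusted p = 0.372 from limma, 0.0301 blocked) it passed in *ets-4(uz1)* only in the blocked fit (for *clec-56* adjusted p = 0.203 from limma, 0.0191 blocked).

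Other neighbors on chromosome V stayed short of the limma threshold. The 8 members from *clec-26* to *clec-33* had a median of 0.10 in *ets-4(uz1)*, with 0.47 in *ets-4(ok165)*. *clec-45* and *clec-46* are neighbors that averaged 1.40 ± 0.65 and 1.37 ± 0.47 in *ets-4(uz1)*, with adjusted p of 0.0696 and 0.0652 from limma (0.034 and 0.0471 blocked). Rank Products called both higher in *ets-4(uz1)*. *clec-46* is a pseudogene in the annotation. *clec-204* and *clec-205* averaged −0.86 ± 0.39 and −1.08 ± 0.35 in *ets-4(uz1)* and 0.07 and −0.12 in *ets-4(ok165)*, and passed in *ets-4(uz1)* only in the blocked fit (adjusted p of 0.0888 and 0.0539 from limma, 0.0461 and 0.024 blocked). On chromosome II *clec-62*, *clec-63*, *clec-64* and *clec-66* share the von Willebrand factor type A domain in the annotation of the array. Of these *clec-64* was above 0 on all 6 arrays (0.75 ± 0.57 in *ets-4(uz1)*, 0.97 ± 0.0749 in *ets-4(ok165)*), while *clec-62* was below 0 on all 6 (−0.98 ± 1.0 in *ets-4(uz1)*, −0.57 ± 0.70 in *ets-4(ok165)*). Both passed in *ets-4(uz1)* only in the blocked fit (adjusted p of 0.126 and 0.233 from limma, 0.0478 and 0.0182 blocked).

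Over all 8 members annotated with a von Willebrand factor type A domain, 1 rose (*clec-61*) and 0 fell in *ets-4(uz1)* (2 and 3 in the blocked fit, 2 and 3 at an unadjusted p under 0.05 in limma, 1 and 1 by Rank Products), with means from −1.26 to 2.16. Of all genes, 3.54% passed limma in this strain, 15.5% the blocked fit, 19.6% an unadjusted p under 0.05 and 2.8% Rank Products. The 4 members annotated with a CUB domain each had 1 sign on all 3 *ets-4(uz1)* arrays, as did 39.7% of all genes. Their means ran from −0.17 to 1.76, with 0 past the limma threshold (3 higher at an unadjusted p under 0.05, 2 in the blocked fit and 1 by Rank Products). Of these *clec-13* and *clec-42* needed the mutant channel to meet the signal limit, which favors a rise, so no direction is read from these counts. The 9 members annotated as pseudogenes had a median of 0.24 in *ets-4(uz1)*, with 0.03 in *ets-4(ok165)*. Of these 0 passed limma in *ets-4(uz1)*, while *clec-46* was higher at an unadjusted p under 0.05, in the blocked fit and by Rank Products.

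The probes with the brightest wild-type signal among the members were those of *clec-63*, *clec-48*, *clec-150*, *clec-47* and *clec-5*. Probe brightness does not rank RNA levels between genes. In *ets-4(uz1)* all 5 had negative means, −0.75 ± 0.75, −0.76 ± 0.31, −0.64 ± 0.44, −1.60 ± 1.04 and −0.44 ± 0.12. None passed limma, and the first 4 passed in the blocked fit (0.027, 0.0231, 0.0261 and 0.045 in that order). Of all genes, 3.54% and 15.5% passed these fits. The *clec-63* spot was saturated on 1 *ets-4(ok165)* array.

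Over the whole family, more mean ratios lay far from 0 than over all genes. In *ets-4(uz1)* 30 members, 21 lower and 9 higher, lay beyond 2-fold, or 21.9% beside 6.1% of all genes tested. In *ets-4(ok165)* 14 did, or 10.2% beside 2.13%. The median of the members was −0.13 in *ets-4(uz1)*, with 0.03 in *ets-4(ok165)*. Among the 84 members bright enough in wild type to be above that limit on all 6 arrays, 19 lay beyond 2-fold in *ets-4(uz1)*, 17 of them lower, or 22.6% beside 5.56% of all genes with such a signal. In *ets-4(ok165)* it was 4 of the 84, or 4.76% beside 1.57%. The 84 had a median of −0.36 in *ets-4(uz1)*, with −0.12 in *ets-4(ok165)*, and the other 53 a median of 0.14 and 0.35. A member dim in wild type passed the signal limit more easily where its mutant signal was high, so no direction is read from those 53.

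**Figure D5:**
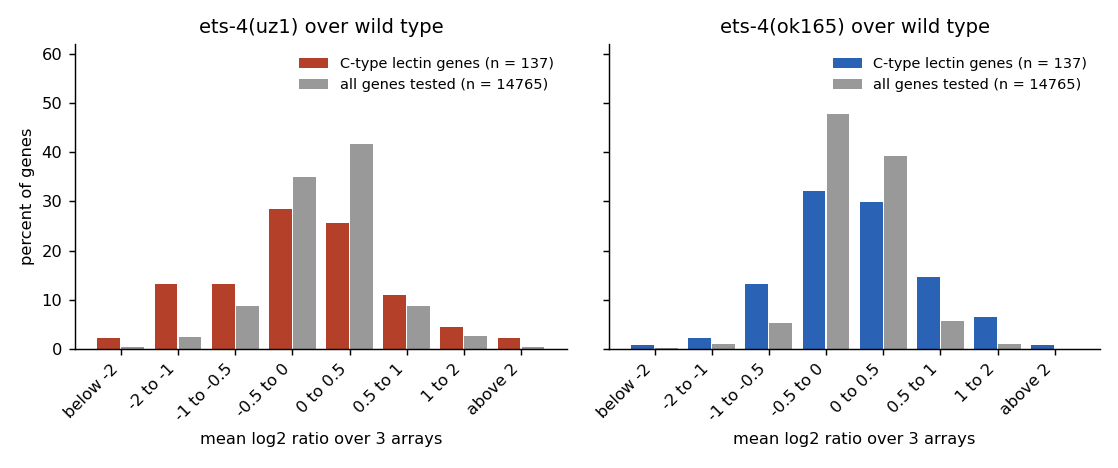
Mean log2 ratios over 3 arrays in classes of size, for *ets-4(uz1)* over wild type at the left and *ets-4(ok165)* over wild type at the right. Colored bars give the percent of the 137 C-type lectin genes in each class and grey bars the percent of all 14765 genes tested. Members below −1 in *ets-4(uz1)* were 21, and the classes nearest 0 held a smaller share of the members than of all genes in both strains.

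Many members also varied with the array number. The array with the number 2 was the lowest of its strain in both strains for 49 of 133 members with all values, or 36.8%, beside 24.8% of all genes. Arrays 1 and 3 were the lowest in both strains for 20.3% and 9.77% of members, beside 20.4% and 11.4% of all genes. Markers of the intestine were lowest on array 2 of both strains as well. Their 13 measured genes of 14 had medians of −0.28, −0.96 and −0.12 on the *ets-4(uz1)* arrays and 0.03, −0.53 and 0.27 on the *ets-4(ok165)* arrays. Of them 1, the aquaporin gene *aqp-4*, fell in *ets-4(uz1)* (1.33% of all genes), and 4 fell in the blocked fit (8.32%). In whole worms fewer cells of a type and less RNA per cell cannot be told apart. The part of the intestinal markers in the lectin ratios was not tested.

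Markers of other tissues lay on either side of 0. In *ets-4(uz1)* the medians were 0.48 for 8 of 10 epidermal genes, −0.03 for 10 pharyngeal genes, 0.40 for 9 of 10 body wall muscle genes, 0.09 for 10 neuronal genes, 0.29 for 9 of 10 sperm genes and 0.63 for 10 oocyte genes. In *ets-4(ok165)* they were 0.19, 0.74, 0.06, 0.27, −0.28 and −0.33 in the same order. The collagen gene *dpy-7* was the 1 gene of these lists that passed, higher in *ets-4(uz1)* (1.63 ± 0.37, adjusted p = 0.032 from limma). In the blocked fit 2 epidermal, 4 muscle and 2 neuronal genes rose there, where 7.21% of all genes did. The means of the oocyte list lay above 0 for all 10 genes in *ets-4(uz1)* and below 0 for all 10 in *ets-4(ok165)*. The arrays differed, with medians of 0.94, 0.97 and −0.10 in *ets-4(uz1)* and −1.03, 0.06 and −0.03 in *ets-4(ok165)*. Only 3 and 2 of the 10 genes kept 1 sign on all arrays of these strains. The part of this list in the lectin differences was not tested.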

How the data were processed

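RNA of late L4 larvae was measured on 6 two-color Agilent arrays, 3 per mutant strain, each with mutant cDNA in Cy5 and wild-type cDNA in Cy3. The authors extracted spots with Agilent Feature Extraction (8.5.1.1 and 9.1.3.1 in the file headers). The deposited intensity values are mean spot and median background signals and the background-subtracted, dye-normalized signals. The authors' log10 ratios were lowess-normalized within each array, and the deposited log2 ratios of the series table are the same ratios per probe.

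Ratios were put on the log2 scale. Control and outlier spots were left out, spots of a probe averaged, and the brightest probe well above background on at least 3 arrays stood for its gene. Ratios of exactly 0 stayed in as values. Where a channel was not well above background throughout a strain, the bound was set after Aquantile scaling by the lowest signal well above background, or the probe's own where higher, and such bounds are open to dye bias without swaps. Symbols, chromosomes and gene order came from RefSeq (WBcel235), with 18122 of 18874 genes matched. A model in limma (version 3.58.1, R version 4.3.3) had a mean per strain over all 6 arrays with 4 residual degrees of freedom, and p-values were adjusted by Benjamini-Hochberg over all genes of each comparison. 4 members lacked a value on 1 or more arrays. The methods call the arrays independent repeats, without naming cultures, so p-values measure the spread between these samples.

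Deviations of same-numbered arrays correlated at 0.513, 0.686 and 0.292, so the array number was also fitted as a block. Slide, scan, background correction, signal filters, probe choice, Rank Products (100 permutations, probability of false prediction under 0.1) and leaving out each array were tried as well. Scripts were tested on simulated data. The genes named were all called members, the 8 members with the largest mean of one sign on all arrays in each strain, the 8 largest strain differences, the 5 brightest wild-type probes, the infection list and neighbors of called genes. Some others were named after their values were seen. The members and lists were chosen with earlier results of these data known. *clec-39*, *clec-41* and *clec-65* of the infection list were not analyzed here.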

Additional observations from a re-analysis of the deposited data

Results flagged for a closer look

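2 members had opposite signs on every array of the strains, which is why they are listed here. *clec-210* (Y73C8C.2), on chromosome V, gave 0.49, 0.33 and 1.20 on the *ets-4(uz1)* arrays and −0.48, −1.36 and −0.86 on the *ets-4(ok165)* arrays. Its difference of 1.57 (SE 0.34) did not pass limma (adjusted p = 0.227, 0.0972 blocked), but did with scan as a random block (1.78, adjusted p = 0.00482 from limma). *clec-28* (F49A5.5), also on chromosome V, gave −0.37, −0.58 and −0.13 in *ets-4(uz1)* and 0.06, 1.01 and 0.71 in *ets-4(ok165)*. Its difference of −0.95 (SE 0.30) did not pass either (adjusted p = 0.541 from limma, 0.192 blocked). Among all genes with values on every array 1.73% showed such a pattern. Groups of 3 arrays were not tested for single outlying arrays.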

How the results depend on the processing

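Over 29 values of named genes, 447 recomputed values stayed on their side of the threshold, 70 were no longer past it, 21 came past it, and none turned its sign. The count of 13 C-type lectin genes called in *ets-4(uz1)* over wild type became 40 with the array number as a replicate block, 20 with scan as a fixed block, 6 under normexp and loess, 3 without the filter on dim probes and 0 with slide as a fixed block, where *clec-17* had an adjusted p of 0.0973 from limma. Over all genes 522 calls became 2293, 839, 399, 128 and 0 in the same order. The count of members ranged from 1 to 16 when single arrays were left out (60 to 594 of all genes). *clec-17* was called without any one array, and the other called genes were each lost without at least 1 *ets-4(uz1)* array. For *ets-4(ok165)* over wild type the count of 0 became 4 with the replicate block, 1 with scan as a random block and 8 by Rank Products, and ranged from 0 to 0 over single arrays left out. Over all genes 14 calls became 49, 16 and 124 in that order. For *ets-4(uz1)* minus *ets-4(ok165)* the count of 0 became 1 with the replicate block and 11 with scan as a random block (*clec-82* and *clec-159* among them, adjusted p = 0.0437 and 0.0446 from limma), and ranged from 0 to 0 over single arrays left out. Over all genes 24 calls became 92 with the replicate block, and the number with scan as a random block is not given here. The other settings kept each count within 1.5 times. The causes were not tested. The replicate block changed no other call of a named gene. The probes of *clec-66* and *clec-88* that were kept beside the brightest one gave means of 0.16 and 0.47 in *ets-4(uz1)* and 0.27 and −0.50 in *ets-4(ok165)*, against −0.23 and 0.72 in *ets-4(uz1)* and −0.30 and −0.28 in *ets-4(ok165)* for the brightest, which turns the sign of *clec-66*. The number of arrays and, for 53 members, a wild-type signal near background limit these values.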
